A study of Homo sapiens with 12 samples.

Results

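The 27 genes described here make cholesterol, carry it within the cell or control its synthesis. They were taken by name from the deposited table of 21574 features, and all 27 were found and passed the filter on low values, which kept 13071 features. The samples are of MDA-231-LM2, which was selected for spread to the lung from MDA-MB-231, a human breast cancer line, in 4 groups of 3 libraries. These are TMEM216+IGF1, TMEM216, Ctrl+IGF1 and Ctrl, so that cells labelled TMEM216 or Ctrl were each measured with and without IGF1, an insulin-like growth factor. All 4 groups share this line, and the labels name breast as the source without saying how the cells were grown. The sources used here give neither what was done to TMEM216, nor what Ctrl carries, nor the dose and duration of IGF1. They also leave unstated whether replicates are separate cultures, so a p-value covers the spread among these 12 libraries, and that spread may be technical. The series asks by its title about the role of TMEM216 in these cells.

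TMEM216, which encodes a transmembrane protein found at the base of cilia, stood at 232, 221 and 224 TPM (transcript abundance per unit length, scaled to a fixed total) in TMEM216+IGF1 libraries, 163, 222 and 250 TPM in TMEM216 libraries, 24.6, 27.5 and 29.8 TPM in Ctrl+IGF1 libraries and 30.1, 24.0 and 25.1 TPM in Ctrl libraries. The libraries labelled TMEM216 therefore all carried more of this transcript than any Ctrl library, which matches the labels. The 7 markers of the line lay between 62.0 and 7272 TPM, while leukocyte, endothelial, adipocyte, erythroid and hepatocyte markers reached at most 3.94 TPM, with CD3E, ADIPOQ, LEP and HBB listed at 0 in all 12 libraries. A pair of libraries, picked after their values were seen, is called here the pair that stood apart. Ctrl+IGF1 replicate 3 was the lowest of its group for 20 of the 27 genes and for 64.8% of all tested features, and TMEM216 replicate 1 was the lowest of its group for 17 of the 27 and for 48.2% of all tested features. The other libraries were the lowest of their groups for 3 to 15 of the 27 genes, with 15 for Ctrl replicate 1 (39.9% of all tested features) and 15 for TMEM216+IGF1 replicate 3 (38.6%). Depth is unknown, because TPM holds no counts.

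Cells build cholesterol from acetyl-CoA. The mevalonate part of the pathway gives farnesyl diphosphate, which is joined into squalene, closed into lanosterol and then trimmed and reduced to cholesterol. The membrane-bound transcription factors SREBP1 and SREBP2 drive these genes. When sterols are plentiful, INSIG proteins hold SREBP and its escort SCAP in the endoplasmic reticulum, and when sterols are scarce SCAP carries SREBP to the Golgi, where it is cut and released to the nucleus.

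SREBP binds sterol regulatory elements in promoters, commonly beside sites of NF-Y, which reads CCAAT. The 250 bases before the start site are shown for SREBF2, the 1 gene of the list whose window held the element searched, and for INSIG1, MVD and STARD4, whose transcripts were higher in TMEM216 cells. Sequences and positions are from RefSeq on GRCh38.p14, read 5′ to 3′ along the gene. Capitals mark TCACNCCAC, a form of the sterol regulatory element, CCAAT and CACGTG, on either strand.
SREBF2: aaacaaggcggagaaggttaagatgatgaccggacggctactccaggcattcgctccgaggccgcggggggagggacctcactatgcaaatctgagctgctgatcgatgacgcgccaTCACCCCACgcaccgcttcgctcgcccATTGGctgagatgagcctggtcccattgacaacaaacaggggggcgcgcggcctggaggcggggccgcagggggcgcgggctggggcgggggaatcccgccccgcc
INSIG1: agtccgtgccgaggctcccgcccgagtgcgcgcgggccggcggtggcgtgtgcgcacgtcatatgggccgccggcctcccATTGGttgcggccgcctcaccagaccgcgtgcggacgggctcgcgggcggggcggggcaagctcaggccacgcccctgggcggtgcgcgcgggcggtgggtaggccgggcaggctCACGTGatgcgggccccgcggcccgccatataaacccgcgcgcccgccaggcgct
MVD: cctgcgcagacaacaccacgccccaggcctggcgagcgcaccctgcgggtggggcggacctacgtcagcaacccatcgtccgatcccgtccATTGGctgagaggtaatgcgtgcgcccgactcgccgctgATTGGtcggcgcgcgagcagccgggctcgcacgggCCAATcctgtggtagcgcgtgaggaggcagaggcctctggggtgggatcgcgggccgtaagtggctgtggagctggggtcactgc
STARD4: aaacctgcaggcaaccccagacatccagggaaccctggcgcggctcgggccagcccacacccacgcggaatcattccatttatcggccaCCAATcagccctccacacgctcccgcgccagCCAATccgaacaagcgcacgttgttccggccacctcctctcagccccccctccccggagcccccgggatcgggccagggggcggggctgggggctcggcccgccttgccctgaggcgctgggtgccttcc
These windows lie at chr22:41832855-41833104 on the plus strand for SREBF2, chr7:155297628-155297877 on the plus strand for INSIG1, chr16:88663092-88663341 on the minus strand for MVD and chr5:111512536-111512785 on the minus strand for STARD4. A promoter entry was found for 24 of the 27 genes, with 32 promoters in all. Searched on both strands, TCACNCCAC was in 1 of these 32, that of SREBF2, and in 310 of all 35116 promoters (0.883%). In the 4 windows shown no motif overlapped another. CCAAT was in 19 of the 32 promoters (59.4%) and in 32.0% of all promoters, and CACGTG was in 4 of the 32 (12.5%) and in 6.34% of all. The 2 windows of SC5D overlap and hold the same CCAAT and the same CACGTG, so each site is counted in both. By gene, CCAAT was in 17 and CACGTG in 3 of the 24 genes with an entry. MVD held 3 CCAAT and STARD4 held 2. The 4 windows shown were picked by hand. Of the other genes called higher in TMEM216 cells, MVK held 5 CCAAT and SREBF1 held no match to any motif searched. IDI1 has 3 start sites, with 0, 3 and 2 CCAAT. A match is a description of the letters and not a mapped binding site.

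The level of the 27 transcripts spanned 35.8-fold. FDPS, which makes farnesyl diphosphate, was the highest, with a mean of 357 TPM over the 12 libraries and a range of 315 to 395 TPM. It held 19.9% of the summed TPM of the 27 genes and lay above 96.6% of tested features. ACAT2, the thiolase that opens the pathway, followed with 164 TPM, then LBR, a sterol reductase of the nuclear envelope, with 140 TPM, and NPC1, the lysosomal cholesterol exporter, with 118 TPM. The 5 highest genes held 49.8% of the summed level. At the low end, TM7SF2, which encodes a reductase for the same step as LBR, had 9.95 TPM, SC5D, a late desaturase, had 11.3 TPM, SQLE, the squalene epoxidase, had 14.5 TPM, and INSIG2 had 14.7 TPM. In this order only the range of FDPS was free of its next lower neighbour, and every other neighbouring pair overlapped over the 12 libraries. HMGCS1, the synthase that makes HMG-CoA, varied most between libraries (coefficient of variation 19.9%) and PMVK, the phosphomevalonate kinase, varied least (6.12%).

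**Figure D1:**
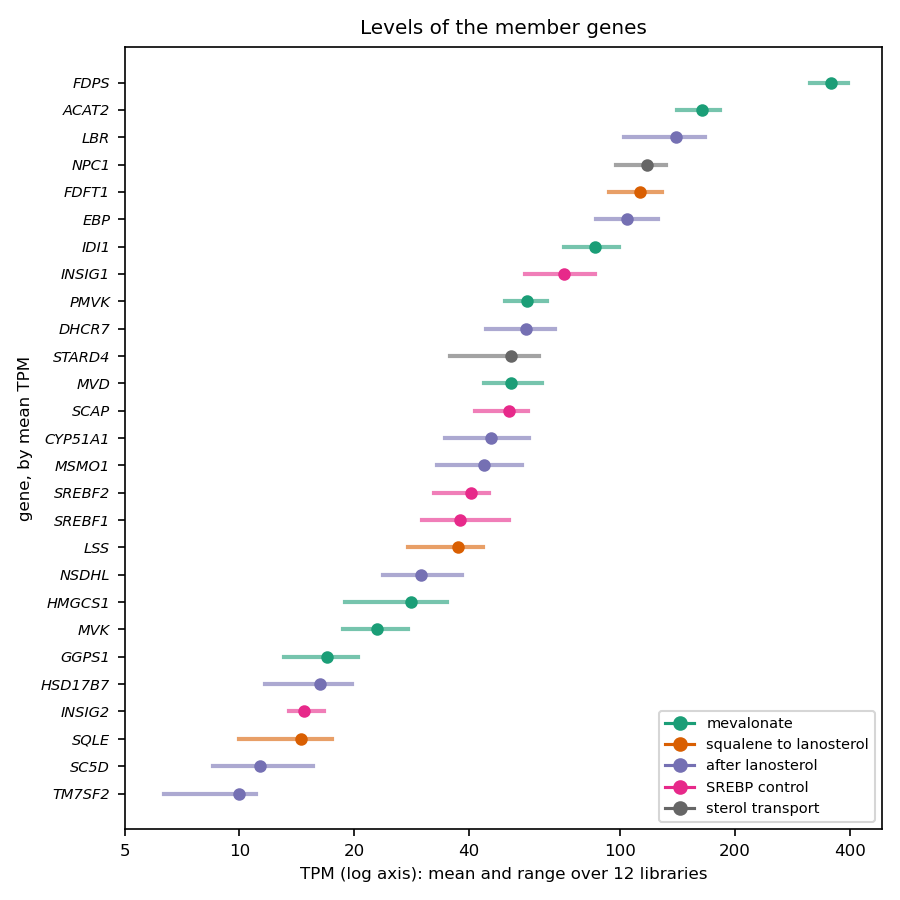
Level of each gene in TPM on a log axis, with the mean over the 12 libraries as a point and the range as a bar, coloured by role. FDPS, at a mean of 357 TPM, stands alone at the top, and the bars of all other neighbours overlap.

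Averaged over both IGF1 conditions, 6 of the 27 genes were higher in TMEM216 than in Ctrl cells and none passed as lower. These were IDI1, MVD and MVK of the mevalonate part, INSIG1 and SREBF1 of SREBP control, and the sterol carrier STARD4. TMEM216 cells and Ctrl cells stand for the 6 libraries of each population, with and without IGF1. The differences were small, with ratios of the mean TPM between 1.22 and 1.29. For this contrast 5.22% of all 13071 features were called in either direction (2.00% higher, 3.21% lower), by limma on log2(TPM + 1) with Benjamini-Hochberg adjustment at 0.05. The median log2 fold change of the 27 genes was 0.11, beside -0.000535 over all features, and 19 of the 27 were fitted above 0, beside 49.9% of all features. That median of the 27 genes ranged from 0.06 (without TMEM216 replicate 3) to 0.16 (without Ctrl+IGF1 replicate 2) when 1 library was left out. At an unadjusted p of 0.05, 10 of the 27 were higher and none lower, beside 8.93% of features higher and 1456 of the 13071 features lower. For 3 of the 27 (IDI1, MVD and STARD4) all 6 TMEM216 libraries lay above all 6 Ctrl libraries, beside 1.97% of features, and for none did they lie below, beside 2.42%. By role, the calls were 3 of 8 mevalonate genes, 0 of 3 from squalene to lanosterol, 0 of 9 after lanosterol, 2 of 5 of SREBP control and 1 of 2 of sterol transport. The summed level of the 4 leukocyte markers was 2.73 to 3.15 TPM in TMEM216+IGF1, 1.72 to 3.94 TPM in TMEM216, 1.47 to 2.00 TPM in Ctrl+IGF1 and 1.69 to 2.21 TPM in Ctrl. That of the 3 endothelial markers was 1.52 to 2.25 TPM in TMEM216+IGF1, 1.13 to 1.37 TPM in TMEM216, 0.703 to 0.928 TPM in Ctrl+IGF1 and 1.05 to 1.18 TPM in Ctrl. Both sums are close to 0 beside the line markers but were apart between TMEM216+IGF1 and Ctrl+IGF1, and their part in the results was not tested. The endothelial marker PECAM1, at 0.646 to 2.15 TPM over the 12 libraries, was called higher averaged (log2 fold change 0.38, limma adjusted p = 0.044) and with IGF1 (0.68, adjusted p = 0.0324). All Ctrl+IGF1 libraries lay below 1 TPM for PECAM1, so the filter kept it only through other groups. Its calls are therefore a description and no support for a difference. Of the 7 line markers, the keratin genes KRT8 (-0.34, limma adjusted p = 0.000795) and KRT19 (-0.39, adjusted p = 0.00248) were called lower averaged, and also in each IGF1 condition. In bulk RNA a smaller share of cells carrying a transcript and less of it per cell cannot be told apart.

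**Figure D2:**
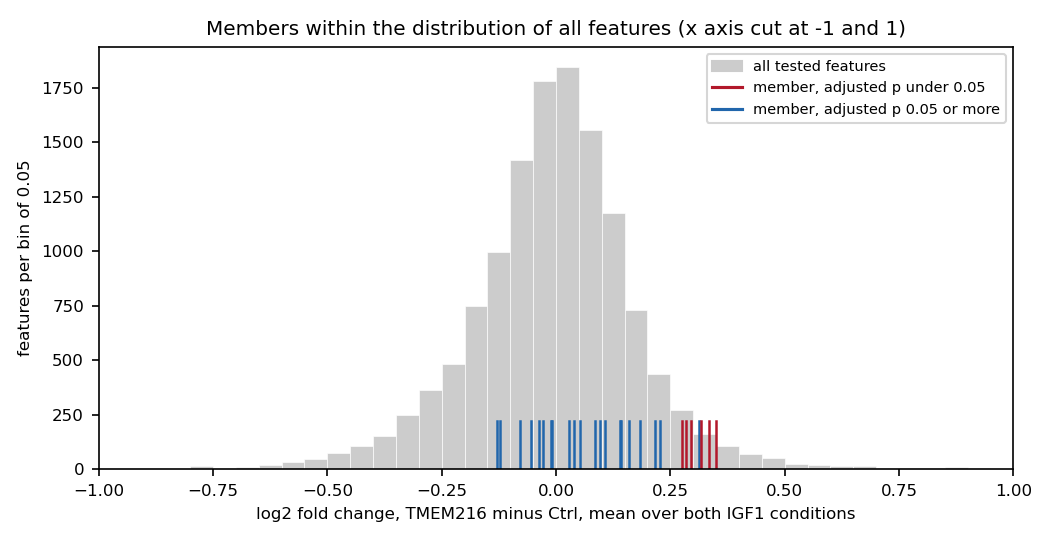
Log2 fold change of TMEM216 over Ctrl cells averaged over both IGF1 conditions, with grey bars for the number of tested features per bin and vertical lines for the 27 genes. The 6 called genes (red) lie between 0.27 and 0.35, inside the right flank of the grey distribution.

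IDI1 encodes isopentenyl diphosphate isomerase, which makes the 2 building blocks of isoprenoids interchangeable. It had 94.4, 98.8 and 90.7 TPM in TMEM216+IGF1 libraries and 88.4, 94.8 and 99.1 TPM in TMEM216 libraries, against 72.3, 79.6 and 71.1 TPM in Ctrl+IGF1 libraries and 81.3, 74.8 and 81.5 TPM in Ctrl libraries. Every TMEM216 library lay above every Ctrl library, in both IGF1 conditions. The means were 94.4 ± 4.28 TPM in TMEM216 cells and 76.8 ± 4.63 TPM in Ctrl cells (SD, n = 6 each), and the averaged log2 fold change was 0.30 (SE 0.053, limma adjusted p = 0.00729).

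MVD, the decarboxylase that yields isopentenyl diphosphate, had 56.1, 53.7 and 62.2 TPM in TMEM216+IGF1 libraries and 54.0, 60.4 and 53.8 TPM in TMEM216 libraries, against 46.3, 48.6 and 46.1 TPM in Ctrl+IGF1 libraries and 43.8, 48.4 and 44.8 TPM in Ctrl libraries. Here too the 6 TMEM216 libraries lay above the 6 Ctrl libraries without overlap. Its averaged log2 fold change was 0.28 (SE 0.057, limma adjusted p = 0.0133), with 0.28 with IGF1 and 0.29 without.

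MVK, the kinase that first phosphorylates mevalonate, had 26.3, 25.2 and 24.1 TPM in TMEM216+IGF1 libraries and 27.7, 25.8 and 22.8 TPM in TMEM216 libraries, against 23.5, 18.7 and 20.7 TPM in Ctrl+IGF1 libraries and 20.5, 20.5 and 20.7 TPM in Ctrl libraries. Within each IGF1 condition the TMEM216 libraries were all higher, but TMEM216 replicate 3 was below Ctrl+IGF1 replicate 1. The averaged log2 fold change was 0.27 (SE 0.069, limma adjusted p = 0.0401). That call held without Ctrl+IGF1 replicate 1 (0.0337) or without TMEM216 replicate 3 (0.0255), and was lost without any 1 of the other 10 libraries (adjusted p between 0.0505 and 0.107) and without the pair that stood apart (0.0649). It was also lost after quantile normalization (0.0591) and median-of-ratios scaling (0.0566), at an unchanged direction. MVK overlaps MMAB on the opposite strand in GENCODE v29, and whether counting used strand is not given, so reads of the pair could be mixed. MMAB itself had a log2 fold change of 0.03 (limma adjusted p = 0.870).

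The other 5 genes of the mevalonate part did not pass. ACAT2 had 164, 171 and 158 TPM in TMEM216+IGF1 libraries and 182, 182 and 176 TPM in TMEM216 libraries, against 149, 165 and 141 TPM in Ctrl+IGF1 libraries and 157, 167 and 158 TPM in Ctrl libraries. Without IGF1 its groups did not overlap, and with IGF1 they did. Its averaged log2 fold change was 0.14 (limma adjusted p = 0.133, and 0.0416 without Ctrl+IGF1 replicate 2). PMVK averaged 56.6 ± 4.76 TPM in TMEM216 cells and 56.9 ± 1.94 TPM in Ctrl cells (SD, n = 6 each), with an interval for the log2 fold change of -0.15 to 0.13. FDPS averaged 347 ± 26.2 TPM in TMEM216 cells and 366 ± 28.9 TPM in Ctrl cells, with an interval of -0.22 to 0.06. GGPS1, which makes geranylgeranyl diphosphate, averaged 16.2 ± 2.71 TPM in TMEM216 cells and 17.7 ± 2.09 TPM in Ctrl cells, with an interval of -0.37 to 0.11. HMGCS1 is described with the IGF1 conditions.

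INSIG1, which retains SCAP and SREBP in the endoplasmic reticulum and is itself an SREBP target, had 81.6, 85.6 and 85.3 TPM in TMEM216+IGF1 libraries and 64.6, 76.1 and 85.2 TPM in TMEM216 libraries, against 63.2, 63.8 and 56.1 TPM in Ctrl+IGF1 libraries and 63.9, 64.8 and 65.1 TPM in Ctrl libraries. TMEM216 replicate 1, 1 of the pair that stood apart, lay within the Ctrl range and the other 5 TMEM216 libraries lay above all Ctrl libraries. The means were 79.7 ± 8.28 TPM in TMEM216 cells and 62.8 ± 3.36 TPM in Ctrl cells (SD, n = 6 each), and the averaged log2 fold change was 0.33 (SE 0.067, limma adjusted p = 0.0133). The calls of IDI1, INSIG1 and MVD in this contrast held in all 20 alternatives tried.

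SREBF1, the gene of SREBP1, had 51.1, 38.6 and 50.6 TPM in TMEM216+IGF1 libraries and 41.6, 40.6 and 34.2 TPM in TMEM216 libraries, against 36.5, 30.2 and 32.3 TPM in Ctrl+IGF1 libraries and 34.3, 32.2 and 33.0 TPM in Ctrl libraries. TMEM216+IGF1 replicates 1 and 3 were the highest, and TMEM216 replicate 3 lay among the Ctrl values. The averaged log2 fold change was 0.35 (SE 0.084, limma adjusted p = 0.0328). The call was lost without any 1 of Ctrl replicates 1, 2 and 3, TMEM216 replicates 1 and 2, TMEM216+IGF1 replicates 1 and 3 and Ctrl+IGF1 replicates 2 and 3 (adjusted p between 0.0501 and 0.091), and after quantile normalization (0.0502). Without the pair that stood apart its adjusted p was 0.0683. SREBF1 overlaps RAI1 on the opposite strand, and RAI1 had a log2 fold change of 0.11 (limma adjusted p = 0.441).

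The other 3 control genes did not pass. SREBF2, the gene of SREBP2, had 43.7, 45.1 and 43.0 TPM in TMEM216+IGF1 libraries and 36.2, 37.5 and 45.3 TPM in TMEM216 libraries, against 38.8, 39.5 and 32.4 TPM in Ctrl+IGF1 libraries and 39.1, 44.2 and 42.3 TPM in Ctrl libraries. Its groups were apart with IGF1 and overlapped without, and the averaged log2 fold change of 0.09 had an interval of -0.07 to 0.24. SCAP had 51.0, 53.8 and 51.2 TPM in TMEM216+IGF1 libraries and 41.6, 50.7 and 51.5 TPM in TMEM216 libraries, against 48.1, 57.3 and 44.6 TPM in Ctrl+IGF1 libraries and 49.2, 55.4 and 57.2 TPM in Ctrl libraries. These overlapped in both conditions, with an interval of -0.22 to 0.11. INSIG2, the second retention protein, had 16.2, 16.6 and 15.6 TPM in TMEM216+IGF1 libraries and 13.6, 14.5 and 13.8 TPM in TMEM216 libraries, against 14.2, 14.6 and 13.6 TPM in Ctrl+IGF1 libraries and 13.5, 15.5 and 15.2 TPM in Ctrl libraries. Only TMEM216+IGF1 stood above the other groups, and the averaged interval was -0.08 to 0.18.

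Because INSIG1 was higher and INSIG2 was not called, the balance of the 2 retention genes is given as a ratio within each library, as a description. INSIG1 over INSIG2 was 5.22 ± 0.231 in TMEM216+IGF1, 5.41 ± 0.725 in TMEM216, 4.31 ± 0.171 in Ctrl+IGF1 and 4.40 ± 0.301 in Ctrl (SD, n = 3 each). All 6 TMEM216 libraries, at 4.76 and above, lay above all 6 Ctrl libraries, at 4.74 and below, though by a narrow gap. This ratio was picked after the INSIG1 values were seen, and no share over other gene pairs was computed. Its separation is therefore no support for a difference beyond that of INSIG1. SREBF2 over SREBF1 was 0.958 ± 0.183 in TMEM216+IGF1, 1.04 ± 0.250 in TMEM216, 1.12 ± 0.160 in Ctrl+IGF1 and 1.27 ± 0.117 in Ctrl, and these values overlapped. LBR over TM7SF2, the 2 reductases of 1 step, was 14.8 ± 1.53 in TMEM216+IGF1, 18.0 ± 5.82 in TMEM216, 11.4 ± 2.52 in Ctrl+IGF1 and 13.8 ± 1.31 in Ctrl.

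STARD4, a soluble carrier that moves cholesterol between membranes, had 56.0, 59.6 and 53.5 TPM in TMEM216+IGF1 libraries and 58.5, 55.4 and 61.1 TPM in TMEM216 libraries, against 44.7, 50.0 and 35.8 TPM in Ctrl+IGF1 libraries and 48.7, 47.3 and 49.9 TPM in Ctrl libraries. All TMEM216 libraries exceeded all Ctrl libraries, and the lowest value of all was Ctrl+IGF1 replicate 3. The averaged log2 fold change was 0.32 (SE 0.075, limma adjusted p = 0.0299), and 0.25 without the pair that stood apart (adjusted p = 0.0223). The call was lost without any 1 of Ctrl replicates 1, 2 and 3, Ctrl+IGF1 replicate 1, TMEM216 replicates 2 and 3 and TMEM216+IGF1 replicates 1 and 2 (adjusted p between 0.0518 and 0.0822). NPC1 averaged 117 ± 10.5 TPM in TMEM216 cells and 119 ± 11.4 TPM in Ctrl cells (SD, n = 6 each), with an interval of -0.19 to 0.13.

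**Figure D3:**
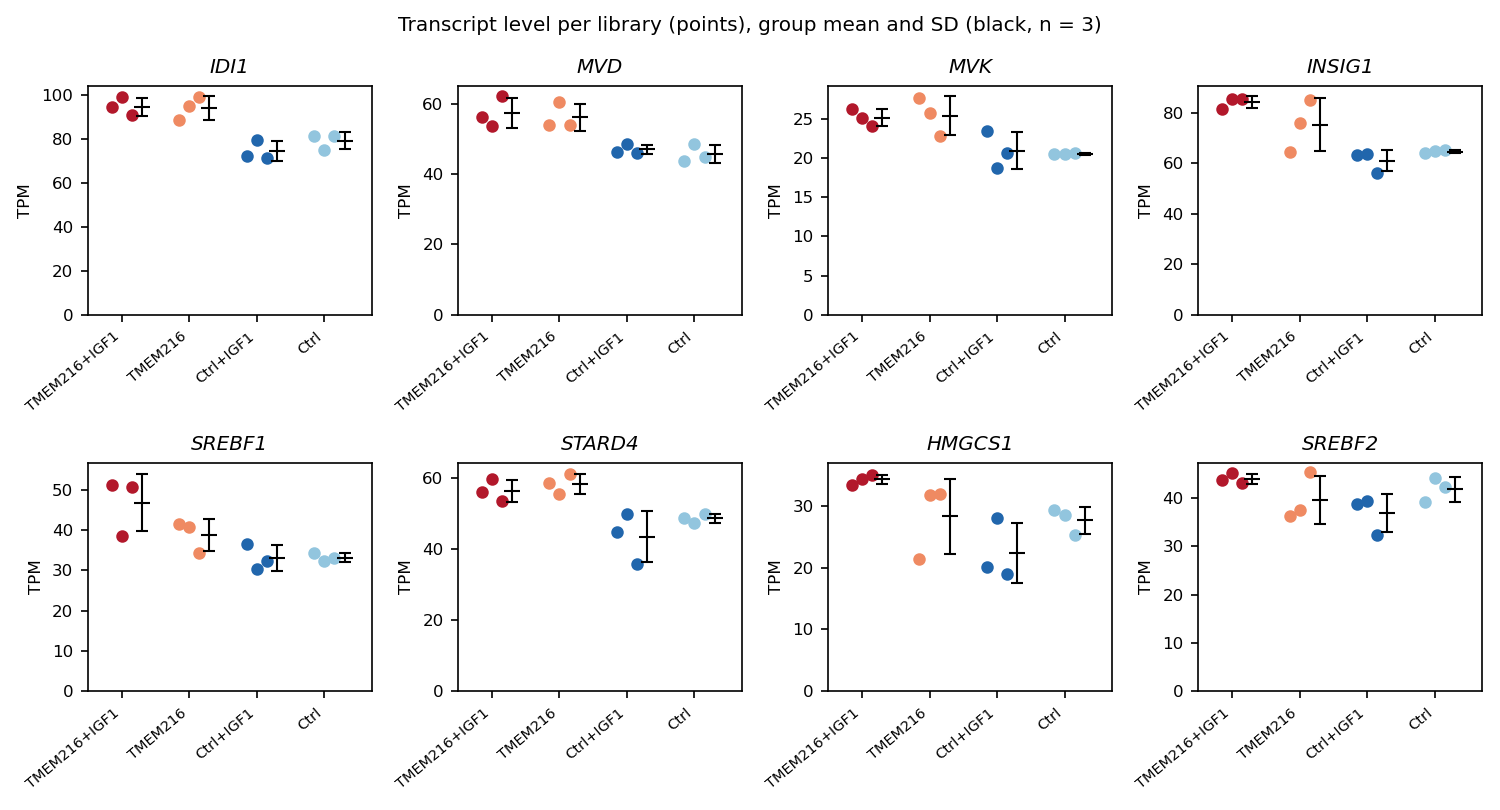
TPM of 8 genes in each library (points), with the group mean and SD (n = 3) in black. IDI1, MVD and STARD4 show no overlap between TMEM216 and Ctrl libraries, and HMGCS1 shows its lowest values in Ctrl+IGF1 replicates 1 and 3 and in TMEM216 replicate 1.

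None of the 12 enzymes from squalene onward passed in the averaged contrast. FDFT1, the squalene synthase, averaged 117 ± 12.9 TPM in TMEM216 cells and 108 ± 12.2 TPM in Ctrl cells (SD, n = 6 each). SQLE averaged 15.5 ± 1.52 TPM in TMEM216 cells and 13.6 ± 2.09 TPM in Ctrl cells, and LSS, the lanosterol synthase, 37.3 ± 4.93 TPM in TMEM216 cells and 37.5 ± 4.35 TPM in Ctrl cells. The intervals of the 3 log2 fold changes were -0.08 to 0.29, -0.05 to 0.41 and -0.22 to 0.20. A difference as large as that of MVK (0.27) lies inside the first 2 of these and outside that of LSS.

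After lanosterol the largest fitted difference was that of LBR, at 151 ± 12.1 TPM in TMEM216 cells and 129 ± 16.6 TPM in Ctrl cells (SD, n = 6 each), with a log2 fold change of 0.23 (limma adjusted p = 0.147). It was called without Ctrl+IGF1 replicate 2 (adjusted p = 0.0256) and after median-of-ratios scaling (0.0492). HSD17B7, a ketosteroid reductase, had 19.8, 19.4 and 17.2 TPM in TMEM216+IGF1 libraries and 16.3, 15.2 and 17.1 TPM in TMEM216 libraries, against 14.7, 16.4 and 15.5 TPM in Ctrl+IGF1 libraries and 13.8, 17.8 and 11.7 TPM in Ctrl libraries. The groups were apart with IGF1 only, and the averaged log2 fold change was 0.22 (limma adjusted p = 0.206). DHCR7, which completes cholesterol, had 67.2, 66.8 and 61.1 TPM in TMEM216+IGF1 libraries and 47.0, 58.9 and 57.7 TPM in TMEM216 libraries, against 55.7, 59.3 and 44.4 TPM in Ctrl+IGF1 libraries and 54.5, 54.3 and 51.3 TPM in Ctrl libraries. Again only TMEM216+IGF1 was apart from its Ctrl group.

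The remaining 6 late enzymes overlapped between the cell populations. CYP51A1, the lanosterol demethylase, averaged 48.2 ± 9.03 TPM in TMEM216 cells and 43.2 ± 5.48 TPM in Ctrl cells, and MSMO1, a methyl oxidase, 45.3 ± 6.78 TPM in TMEM216 cells and 42.2 ± 5.51 TPM in Ctrl cells. NSDHL, its partner in removing methyl groups, averaged 30.3 ± 2.45 TPM in TMEM216 cells and 29.7 ± 4.83 TPM in Ctrl cells, and EBP, a sterol isomerase, 103 ± 13.2 TPM in TMEM216 cells and 105 ± 7.38 TPM in Ctrl cells. Their intervals all held 0. TM7SF2 averaged 9.55 ± 1.71 TPM in TMEM216 cells and 10.4 ± 0.669 TPM in Ctrl cells, and is uncertain because it overlaps VPS51 on the same strand. SC5D had 10.9, 12.9 and 10.6 TPM in TMEM216+IGF1 libraries and 9.83, 12.5 and 11.4 TPM in TMEM216 libraries, against 11.7, 9.79 and 8.55 TPM in Ctrl+IGF1 libraries and 11.1, 15.6 and 10.8 TPM in Ctrl libraries, where Ctrl replicate 2 was the highest of all.

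**Figure D4:**
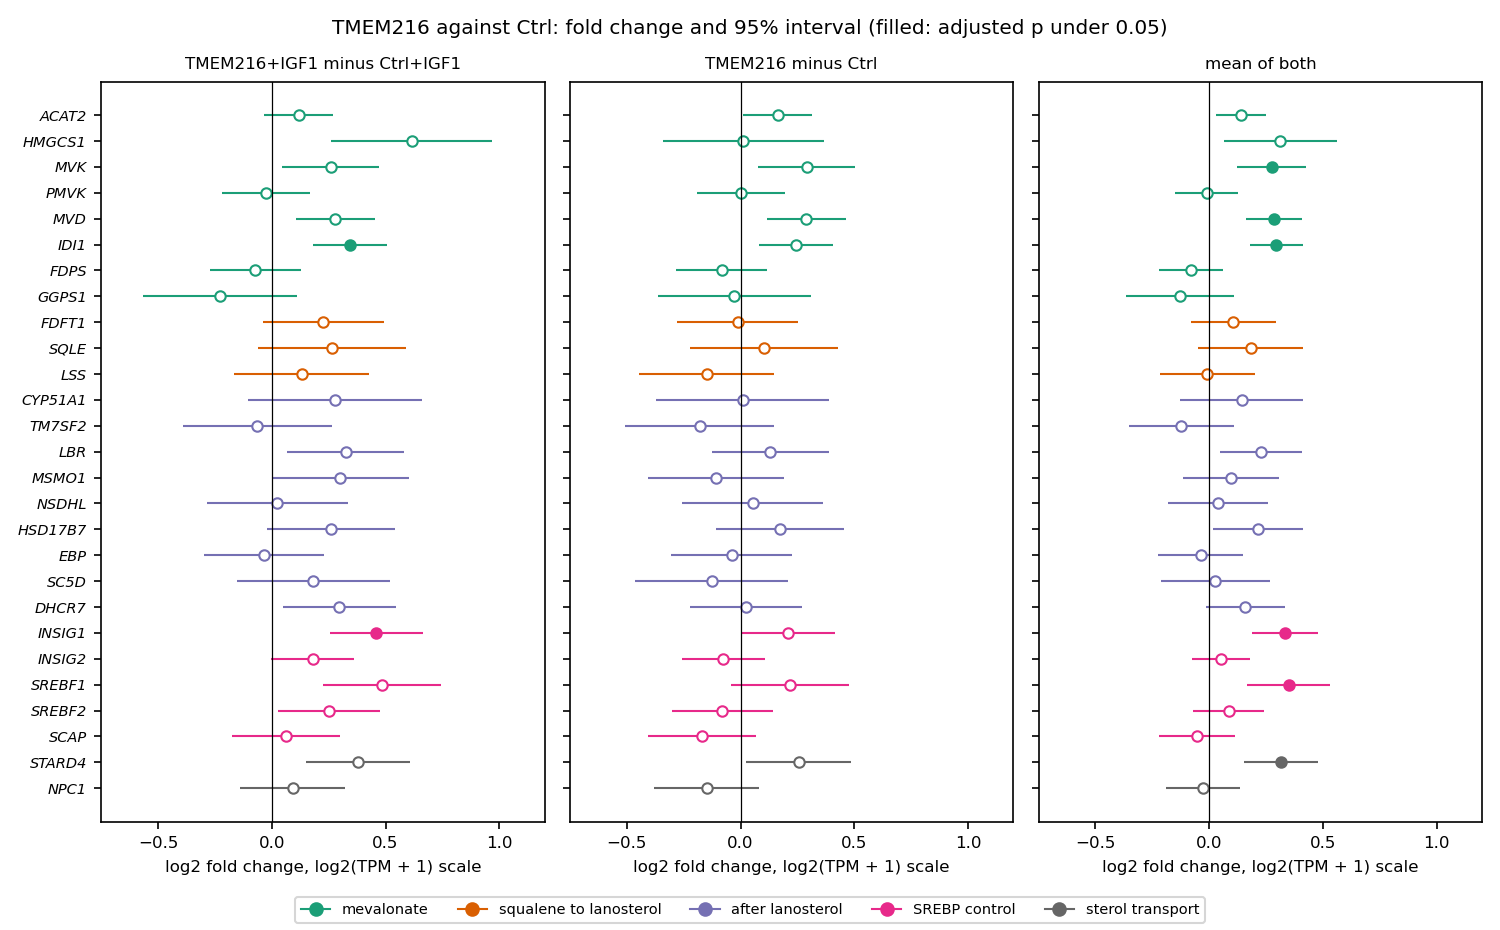
Log2 fold change on the log2(TPM + 1) scale with its 95% interval for the 27 genes, for TMEM216+IGF1 minus Ctrl+IGF1, TMEM216 minus Ctrl and the mean of both. Filled points passed an adjusted p of 0.05, which were 2, 0 and 6 genes from left to right.

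With IGF1 present, INSIG1 and IDI1 were higher in TMEM216+IGF1 than in Ctrl+IGF1 cells and no gene of the list passed as lower. For this contrast 1.61% of all features were called (0.918% higher, 0.696% lower), and at an unadjusted p of 0.05 11 of the 27 genes were higher, beside 9.98% of features. INSIG1 had a log2 fold change of 0.46 (SE 0.094, limma adjusted p = 0.0313) and IDI1 of 0.35 (SE 0.075, limma adjusted p = 0.0436). Libraries of the groups did not overlap for 11 genes that were higher in TMEM216+IGF1, beside 12.0% of all features, namely HMGCS1, MVK, MVD, IDI1, HSD17B7, DHCR7, INSIG1, INSIG2, SREBF1, SREBF2 and STARD4. GGPS1 was the 1 gene lower without overlap, beside 7.69% of all features. The median of the 27 genes was 0.25, beside 0.05 over all features, and 0.16 beside -0.01 without Ctrl+IGF1 replicate 3, with or without TMEM216 replicate 1. Both calls were lost in a fit of only the 6 libraries compared (adjusted p = 0.0812 for INSIG1 and 0.172 for IDI1). They were also lost without any 1 of Ctrl replicates 1, 2 and 3, TMEM216 replicate 2, TMEM216+IGF1 replicates 1, 2 and 3 and Ctrl+IGF1 replicates 1 and 3, with adjusted p between 0.0576 and 0.129 for INSIG1 and between 0.066 and 0.181 for IDI1. Without Ctrl+IGF1 replicate 2 both passed, and HMGCS1, LBR and STARD4 passed as well, and without TMEM216+IGF1 replicate 2 SREBF1 alone passed (adjusted p = 0.0319). Without TMEM216 replicate 1 HMGCS1 joined INSIG1 and IDI1. Without the pair that stood apart INSIG1 passed (log2 fold change 0.40, limma adjusted p = 0.0127) and IDI1 did not (0.31, adjusted p = 0.0564).

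Without IGF1 none of the 27 genes passed between TMEM216 and Ctrl cells, where limma called 1.09% of all features. These were 0.153% higher and 0.941% lower, or 20 and 123 features, against 60 and 123 after quantile normalization. At an unadjusted p of 0.05, 6 genes were higher and none lower, beside 3.17% of features higher and 1313 of the 13071 features lower. The smallest p were those of MVD (log2 fold change 0.29, limma adjusted p = 0.121), IDI1 (0.25, adjusted p = 0.153) and MVK (0.29, adjusted p = 0.203). ACAT2, MVK, MVD, IDI1 and STARD4 were higher without overlap, beside 6.30% of all features, and none was lower without overlap, beside 15.5%. IDI1 passed after quantile normalization (adjusted p = 0.0443) and after median-of-ratios scaling (0.0461), and INSIG1 passed without the pair that stood apart (log2 fold change 0.31, adjusted p = 0.0376). The median of the 27 genes was 0.01, beside -0.05 over all features, and its direction rested on 1 library, TMEM216 replicate 3. It was -0.07 without TMEM216 replicate 3, beside -0.06 over all features, and 0.12 without TMEM216 replicate 1, beside -0.02.

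That a gene passed with IGF1 and not without does not show that its difference changed with IGF1. In the interaction, which asks that directly, limma called 0.0153% of all features and none of the 27 genes, with 2 at an unadjusted p under 0.05, beside 5.38% of features. HMGCS1 had the smallest p. It had 33.4, 34.3 and 35.0 TPM in TMEM216+IGF1 libraries and 21.3, 31.7 and 31.9 TPM in TMEM216 libraries, against 20.1, 28.0 and 19.0 TPM in Ctrl+IGF1 libraries and 29.3, 28.4 and 25.2 TPM in Ctrl libraries. All TMEM216+IGF1 libraries lay above all Ctrl+IGF1 libraries, while TMEM216 libraries lay on both sides of the Ctrl ones. Its log2 fold change was 0.61 with IGF1 (SE 0.162, limma adjusted p = 0.0923) and 0.01 without (adjusted p = 0.990), and the difference between these was 0.60, with an interval of 0.10 to 1.10 (adjusted p = 0.754). Without the pair that stood apart that difference was 0.31 (adjusted p = 0.999). Averaged over IGF1 it was 0.31 (adjusted p = 0.146), and it passed without TMEM216 replicate 1 (0.41, adjusted p = 0.0293), without Ctrl+IGF1 replicate 2 (0.40, adjusted p = 0.0419) and without the pair that stood apart (0.35, adjusted p = 0.0343). SREBF2 had an interaction of 0.33 and INSIG2 of 0.25 (limma adjusted p = 0.754 each). The median interaction of the 27 genes was 0.19, beside 0.11 over all features, and 0.04 beside 0.02 without the pair that stood apart. When 1 library was left out it ranged from 0.12 (without Ctrl+IGF1 replicate 3) to 0.28 (without Ctrl+IGF1 replicate 2).

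**Figure D5:**
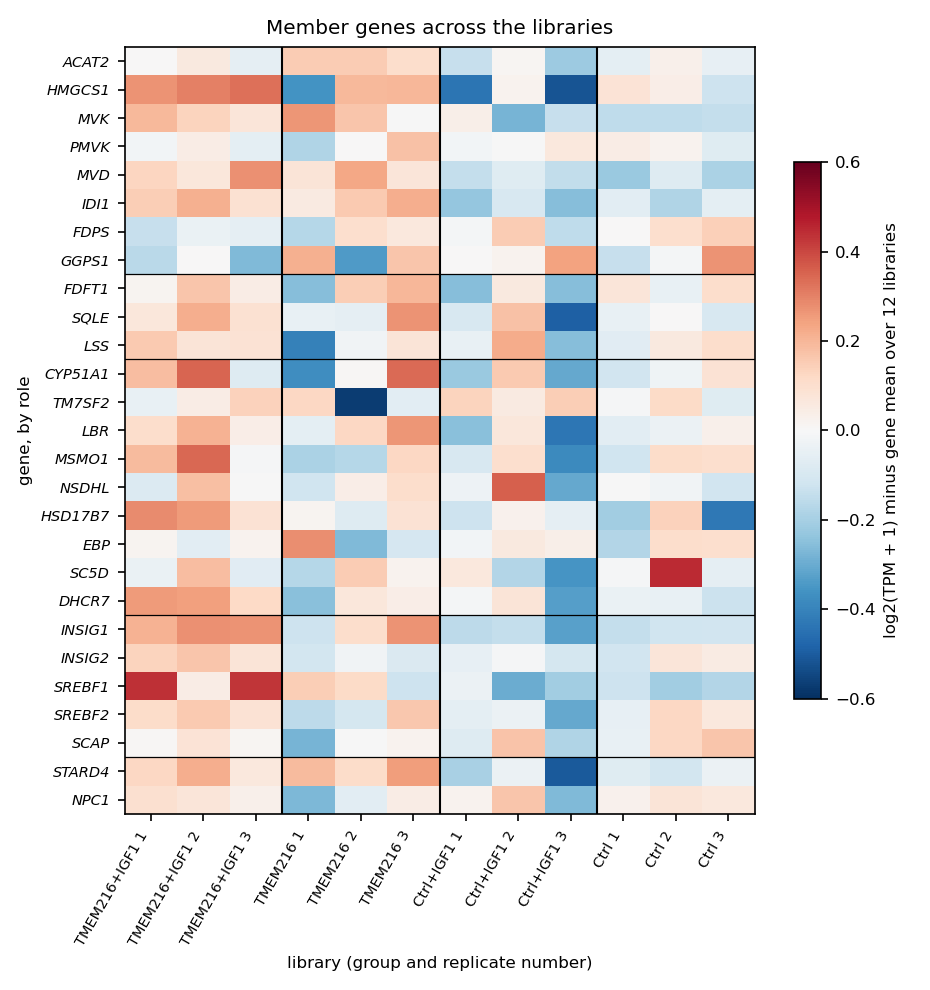
Log2(TPM + 1) of each gene minus its mean over the 12 libraries, with genes in rows by role and libraries in columns by group. TMEM216 replicate 1 and Ctrl+IGF1 replicate 3 show low values over many rows, being the lowest of their groups for 17 and 20 of the 27 genes.

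IGF1 itself moved none of the 27 genes past the threshold. In TMEM216 cells limma called 0.0153% of all features with IGF1 and 2 of the 27 genes had an unadjusted p under 0.05, beside 4.77% of features. These were INSIG2, with a log2 fold change of 0.20, and DHCR7, with 0.26 (limma adjusted p of 1 each), and SREBF1 followed with 0.26. The groups did not overlap for HMGCS1, LSS, HSD17B7, DHCR7 and INSIG2, which were higher with IGF1, beside 6.56% of all features, and for ACAT2, which was lower, beside 3.69%. In Ctrl cells limma called 0.0306% of all features and none of the 27 genes had an unadjusted p under 0.05, beside 6.89% of features. HMGCS1 (-0.31), SC5D (-0.28) and SREBF2 (-0.18) had the smallest p (limma adjusted p = 0.673 each), and INSIG1 was the 1 gene lower without overlap, beside 11.8%, and none was higher, beside 2.72%. Averaged over both populations 0.0536% of features were called, none of the 27 genes, and ACAT2 was the 1 gene with an unadjusted p under 0.05, beside 5.88%, at -0.11 (interval -0.22 to -0.0043, limma adjusted p = 0.827). The IGF1 and the TMEM216 contrasts share libraries, and so their values for a gene are not independent.

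Summed over the 27 genes, the level was 1870 ± 47.8 TPM in TMEM216+IGF1, 1825 ± 124 TPM in TMEM216, 1682 ± 167 TPM in Ctrl+IGF1 and 1781 ± 50.6 TPM in Ctrl (SD, n = 3 each), with overlap between the TMEM216 and Ctrl libraries of either IGF1 condition. The lowest sum was that of Ctrl+IGF1 replicate 3 (1525 TPM). The 5 SREBP control genes summed to 243 ± 3.03 TPM in TMEM216+IGF1, 216 ± 16.6 TPM in TMEM216, 195 ± 14.0 TPM in Ctrl+IGF1 and 208 ± 7.19 TPM in Ctrl. The 8 mevalonate genes, of which FDPS is the largest single part, summed to 784 ± 18.1 TPM in TMEM216+IGF1, 815 ± 48.8 TPM in TMEM216, 747 ± 56.8 TPM in Ctrl+IGF1 and 785 ± 19.5 TPM in Ctrl.

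SREBP1 is best known for driving fatty acid synthesis, and its part in the values below was not tested. Of the 5 fatty acid genes listed 1, SCD, passed in each TMEM216 contrast. Over all features 1.61% were called with IGF1, 1.09% without and 5.22% averaged. SCD, the stearoyl-CoA desaturase, had 67.3, 68.3 and 61.9 TPM in TMEM216+IGF1 libraries and 38.5, 45.4 and 51.3 TPM in TMEM216 libraries, against 29.8, 32.8 and 21.7 TPM in Ctrl+IGF1 libraries and 27.0, 26.7 and 29.2 TPM in Ctrl libraries. The TMEM216 libraries were all higher than the Ctrl ones, beside 1.97% of all features, and TMEM216+IGF1 was the highest group. The log2 fold change was 1.22 with IGF1 (limma adjusted p = 0.000828), 0.68 without (adjusted p = 0.0434) and 0.95 averaged (adjusted p = 0.000219). The call without IGF1 was lost in 13 of 21 alternatives, with adjusted p up to 0.168. Leaving out any 1 of Ctrl replicates 1, 2 and 3, TMEM216 replicates 2 and 3, TMEM216+IGF1 replicates 1, 2 and 3 and Ctrl+IGF1 replicate 1 did so (adjusted p between 0.0674 and 0.168). FASN, the fatty acid synthase, had a log2 fold change of 0.23 averaged (limma adjusted p = 0.103). ACACA (0.31 averaged), ELOVL6 (0.17) and ACLY (-0.0076) did not pass either.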

How the data were processed

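Total RNA of 12 libraries was sequenced after TruSeq library preparation, per the labels. The authors deposited TPM per feature, scaled to a fixed total per library, made with HISAT2, StringTie and RSEM per the submitters' processing notes. Neither versions nor the build, annotation and strand setting are stated in the sources used here. From the deposited TPM, log2(TPM + 1) was computed, and features with at least 1 TPM in 3 or more libraries were kept (13071 of 21574). Fold changes on this scale understate changes of low genes. One fit of all 12 libraries in 4 groups was made with limma 3.58.1 in R 4.3.3, with a mean-variance trend and two-sided tests, and p was adjusted by Benjamini-Hochberg over all kept features. Intervals are 95%, and SE is limma's moderated standard error. The code was tested on simulated data. The 27 genes and the other lists were chosen with earlier results of these data known. Library values are printed for genes of the list past the threshold, the SREBP control genes and the 3 smallest p of each contrast. Alternatives were quantile or median-of-ratios scaling, a pseudocount of 0.1, a minimum of 5 TPM or none, no trend, a block for replicate number, a fit of the compared groups alone and leaving out each library. Leaving out the pair that stood apart was added after seeing the data. No libraries were identical, with correlations between 0.977 and 0.990. Of the 27 genes, 6 overlap another tested gene in GENCODE v29 (ACAT2, MVK, SREBF1 and NPC1 on the opposite strand, GGPS1 on both, TM7SF2 on the same) and 3 have pseudogenes named after them (FDPS, CYP51A1 and HSD17B7), so their values are uncertain to that extent.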

Additional observations from a re-analysis of the deposited data

How the results depend on the processing

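No gene of the list that had an unadjusted p under 0.05 changed sign in any alternative. The count of the 27 genes called in the averaged contrast was 6, with 4 after quantile normalization, 5 without the pair that stood apart (Ctrl+IGF1 replicate 3 and TMEM216 replicate 1) and between 3 and 7 when 1 library was left out. With IGF1 the count was 2, with 1 without the mean-variance trend, 0 with only the 6 libraries compared, 1 without the pair, and between 0 and 5 when 1 library was left out. Without IGF1 it was 0, and 1 after quantile normalization, after median-of-ratios scaling and without the pair. The cause was not tested. The 4 counts for IGF1 and the interaction were 0 in every alternative. The count over all features moved from 143, 211 and 682 (without IGF1, with IGF1, averaged) to 183, 294 and 959 after quantile normalization, and ranged over 43 to 273, 84 to 462 and 392 to 906 when 1 library was left out. Without the pair that stood apart it rose to 288, 238 and 1061. The scaling also moved the median interaction of all features, from 0.11 to 0.01 after quantile normalization and 0.00 after median-of-ratios scaling, and that of the 27 genes from 0.19 to 0.12 and 0.08. With the replicate number as a block, the counts of the 27 genes were 4 averaged (MVK, adjusted p = 0.0509, and STARD4, 0.053, were lost), 0 with IGF1 (INSIG1, 0.0673, and IDI1, 0.091, were lost) and 0 without, and those over all features 499, 140 and 77. Same-numbered libraries of different groups correlated between -0.286 and 0.165 in their deviations from the group means, with 4 of 18 pairs over 0.1, so the numbers were not taken to pair the libraries.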

Other observations

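A wider list of 36 genes of sterol sensing, transport, efflux and isoprenoid use, 34 of them tested, had 2 genes higher and 1 lower in TMEM216 than in Ctrl cells averaged over IGF1, where 5.22% of all features were called. Its median log2 fold change was 0.04, beside -0.000535 over all features. TMEM97, a sterol-binding membrane protein that interacts with NPC1, had 60.4, 63.7 and 60.4 TPM in TMEM216+IGF1 libraries and 60.9, 65.9 and 68.5 TPM in TMEM216 libraries, against 50.8, 51.4 and 47.4 TPM in Ctrl+IGF1 libraries and 51.4, 50.3 and 55.3 TPM in Ctrl libraries. All TMEM216 libraries exceeded all Ctrl libraries, beside 1.97% of all features. It averaged 63.3 ± 3.36 TPM in TMEM216 cells and 51.1 ± 2.55 TPM in Ctrl cells (SD, n = 6 each), with a log2 fold change of 0.30 (SE 0.052, limma adjusted p = 0.00556), and held in all 20 alternatives. ABCA1, the exporter that loads cholesterol onto lipoproteins, was low throughout, with 1.73, 1.88 and 1.44 TPM in TMEM216+IGF1 libraries and 0.937, 1.06 and 1.11 TPM in TMEM216 libraries, against 0.642, 0.777 and 0.516 TPM in Ctrl+IGF1 libraries and 0.359, 0.466 and 0.507 TPM in Ctrl libraries. All Ctrl libraries lay below 1 TPM, so the filter kept ABCA1 only through TMEM216 libraries. Its separation and calls are therefore a description and no support for a difference. Every TMEM216 library exceeded every Ctrl library, beside 1.97% of all features. Its averaged log2 fold change was 0.60 (SE 0.10, limma adjusted p = 0.00532), on a scale that understates low genes (1.17 with a pseudocount of 0.1). With IGF1 it was 0.71 (adjusted p = 0.0292), a call kept in 8 of 20 alternatives and lost without any 1 of Ctrl replicates 2 and 3, TMEM216 replicate 2, TMEM216+IGF1 replicates 1, 2 and 3 and Ctrl+IGF1 replicates 1 and 3 (adjusted p between 0.0515 and 0.136). NR1H3, the gene of the oxysterol receptor LXR alpha, had 11.5, 12.8 and 12.6 TPM in TMEM216+IGF1 libraries and 10.4, 10.9 and 11.4 TPM in TMEM216 libraries, against 16.7, 14.0 and 12.9 TPM in Ctrl+IGF1 libraries and 13.5, 15.2 and 14.8 TPM in Ctrl libraries. All TMEM216 libraries lay below all Ctrl libraries, beside 2.42% of all features. It averaged 11.6 ± 0.934 TPM in TMEM216 cells and 14.5 ± 1.34 TPM in Ctrl cells, with a log2 fold change of -0.30 (SE 0.073, limma adjusted p = 0.0331) that passed in 10 of 20 alternatives. It was lost without any 1 of Ctrl replicates 1, 2 and 3, TMEM216 replicates 1 and 2, TMEM216+IGF1 replicates 1, 2 and 3 and Ctrl+IGF1 replicate 1 (adjusted p between 0.0532 and 0.0944).

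Among the wider list, NUS1 of dolichol synthesis (0.22, limma adjusted p = 0.0561), the farnesyltransferase subunit FNTB (0.23, adjusted p = 0.0749), the ubiquitin ligase MYLIP (0.23, adjusted p = 0.0751), LPIN1 (0.35, adjusted p = 0.0769) and the desaturase FADS1 (0.27, adjusted p = 0.0915) came next by p and did not pass. With IGF1 the list had 1 gene called, ABCA1, kept by the filter only through TMEM216 libraries, beside 1.61% of all features. Its median was 0.12, beside 0.05. Without IGF1 it had none, beside 1.09%, and a median of -0.02, beside -0.05. ABCG1 was listed at 0 in 9 of the 12 libraries.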
